A study of Mus musculus with 10 samples.

Results

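The combination diet was set against the aspirin diet in mice with colitis-driven colon carcinogenesis: 2 libraries labelled ASA+CUR and 2 labelled ASA, 4 of the 10 libraries of the study. All mice of both groups were C57BL/6 and received azoxymethane (AOM), a carcinogen that acts on the colon, at 10 mg/kg at 6 weeks of age, followed a week later by dextran sulfate sodium (DSS), an irritant that injures the colon lining, at 1.2% in the drinking water for 7 days. The ASA mice ate the AIN-93M diet with 0.02% aspirin. The ASA+CUR mice ate the same base diet with 0.01% aspirin and 1% curcumin, so the aspirin dose differed along with the added curcumin, and the share of each in a difference cannot be told apart. The other groups were Model (AOM/DSS, base diet), CUR (AOM/DSS, 2% curcumin) and Control (saline, no DSS, base diet), each with 2 libraries. The labels call the tissue tumor samples, while the extraction protocol describes the colon that remained once its proximal end and the palpable tumors had been taken off. The labels do not say that replicates were separate animals, so tests measure only the spread between these libraries.

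Values are FPKM, fragments per kilobase of transcript scaled to the mapped fragments of a library, summed over the transcripts of a gene. A log2 difference is the mean of log2(FPKM + 1) in ASA+CUR minus that in ASA, given with its standard error (SE) from limma. On this scale the differences of genes under a few FPKM are understated. The tissue was rich in epithelium in all 4 libraries: Epcam, an adhesion protein of epithelial cells, had 795 and 885 FPKM in ASA, and 793 and 761 in ASA+CUR. Cdh1, the epithelial cadherin, had 303 and 352 FPKM, and 336 and 348. FPKM sums ran from 515959 to 720895 over the 10 libraries, and the files used here give no read totals, so the depth behind a value is unknown. In tissue RNA, fewer cells of a type and less RNA per cell cannot be told apart.

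ASA replicate 1 stood apart from the other 3 libraries in some of the homeobox genes that mark position along the gut. Hoxd13, a factor of the hindmost gut, was listed at 75.7 FPKM in ASA replicate 0 and 0.0566 in ASA replicate 1, against 87.7 and 65.2 in ASA+CUR. Hoxb13, a factor of the distal colon and rectum, had 197 and 14.97 FPKM in ASA, and 180 and 183 in ASA+CUR. The caudal-type factor Cdx2 ran the other way, at 5.22 and 61.1 FPKM in ASA and 6.34 and 7.05 in ASA+CUR, as did Hoxa11, at 3.18 and 15.3 against 3.21 and 3.64. So for these 4 genes 1 ASA library was like both ASA+CUR libraries and the other was not. They are part of the 13 position factors tested, of which 7 were higher in ASA+CUR and 6 lower (median 0.10). Across the 14061 genes tested, ASA replicate 0 correlated more with ASA+CUR replicate 0 (Pearson r = 0.986) than with ASA replicate 1 (r = 0.954). The part of this split in the results was not tested, and differences are given with and without ASA replicate 1 where they depend on it.

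**Figure D1:**
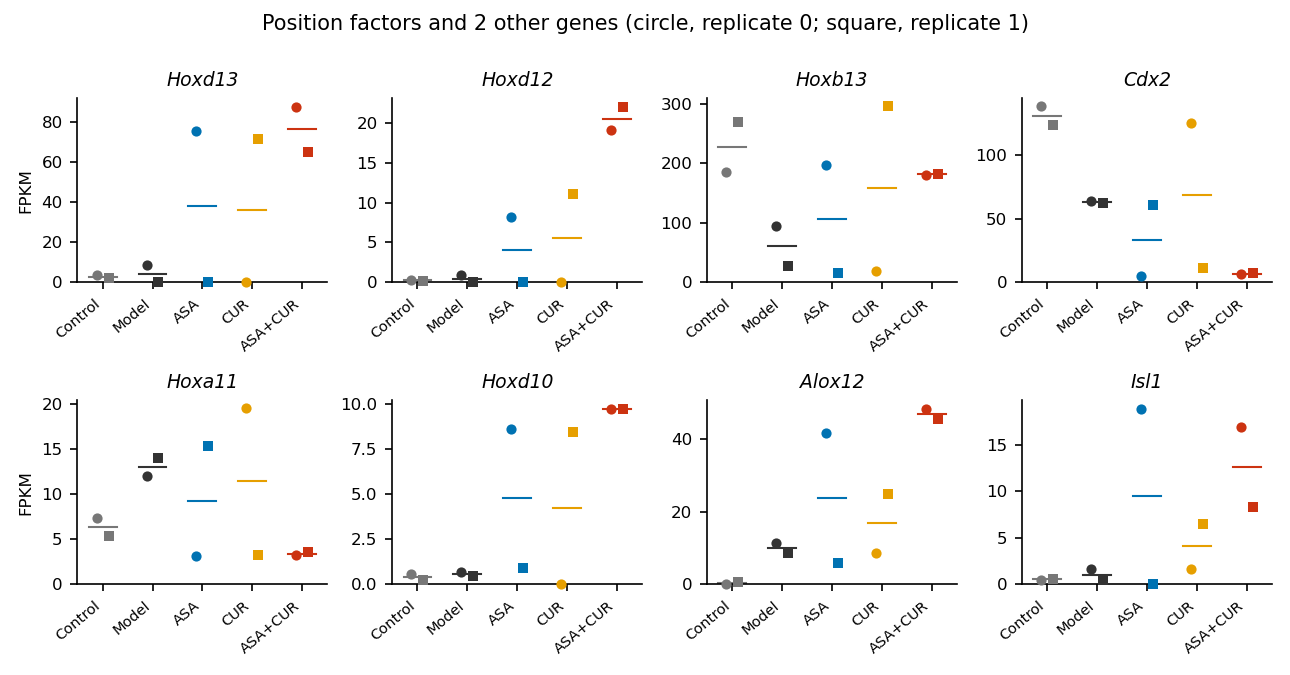
FPKM (linear axis, from 0) of 6 position factors and of Alox12 and Isl1 in each of the 10 libraries, with circles for replicate 0, squares for replicate 1 and a bar at the mean of the 2. Hoxd13 is at 75.7 in ASA replicate 0 and 0.0566 in ASA replicate 1, and the CUR libraries are also split, while both ASA+CUR libraries are high. Over the 13 position factors tested the mean log2(FPKM + 1) was 3.92 and 2.75 in ASA replicates 0 and 1. It was 2.73 and 3.89 in CUR replicates 0 and 1.

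The members that lay lowest in ASA+CUR as a group were the interferon response genes. Interferons are cytokines released by infected or activated cells. Interferon-gamma, from T and NK cells, acts through a receptor with the kinases Jak1 and Jak2, and the signal ends at the DNA element GAS. Type I interferons act through Jak1 and Tyk2 on a complex that includes Stat2 and Irf9 and binds the ISRE element. The genes they switch on encode guanosine triphosphatases (GTPases) that attack microbes inside the cell, antiviral effectors, and the machinery that cuts and loads peptides for display. In the inflamed colon both epithelium and immune cells carry this program.

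The promoters of 4 of these genes are shown because they carry the 2 elements in different arrangements. Irgm2 and Igtp encode immunity-related GTPases, and Ifit1 and Isg15 encode antiviral effectors. Each run is the 150 bases before the RefSeq start site (GRCm38.p6), 5′ to 3′ on the gene's strand. Capitals mark the GAS letters TTCNNNGAA and the core ISRE letters GAAANNGAAA, searched on both strands, where N is any base. In these 4 runs no GAS match overlaps an ISRE match.
Irgm2, chr11:58214827-58214976, plus strand: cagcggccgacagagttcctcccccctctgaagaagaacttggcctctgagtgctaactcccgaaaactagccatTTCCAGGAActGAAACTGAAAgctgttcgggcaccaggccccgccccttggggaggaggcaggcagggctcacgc
Igtp, chr11:58199406-58199555, plus strand: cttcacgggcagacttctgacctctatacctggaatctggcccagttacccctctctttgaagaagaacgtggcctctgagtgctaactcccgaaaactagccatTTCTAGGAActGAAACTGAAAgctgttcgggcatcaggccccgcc
Ifit1, chr19:34640739-34640888, plus strand: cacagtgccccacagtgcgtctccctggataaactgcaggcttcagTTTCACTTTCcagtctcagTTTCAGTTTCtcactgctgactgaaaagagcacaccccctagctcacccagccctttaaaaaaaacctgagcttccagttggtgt
Isg15, chr4:156200819-156200968, minus strand: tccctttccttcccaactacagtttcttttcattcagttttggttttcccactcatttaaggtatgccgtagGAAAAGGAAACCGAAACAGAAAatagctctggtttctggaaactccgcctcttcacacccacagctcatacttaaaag

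Irgm2 held 1 GAS and 1 ISRE match, and so did its neighbour Igtp. The 2 windows, lined up on the GAS match, were identical at 103 of 120 bases. Ifit1 held 2 ISRE matches on the opposite strand and Isg15 held 3, each overlapping the next. Neither window had a GAS match. Over all 32851 RefSeq promoter windows of 250 bases before to 50 after a start site, 8.3% held GAS letters, 3.44% held ISRE letters and 0.454% held both. Of the 30 listed interferon genes, 22 had 1 or more windows. Of these genes, 8 held GAS, 12 held ISRE and 4 held both (Irgm2, Igtp, Gbp7 and Oas1a) in any window. Counted per window as above, 29.6% of their 27 windows held GAS, 44.4% held ISRE and 14.8% held both. A match describes the letters only.

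No gene passed the test between the 2 diets. Of 14061 genes tested by limma with Benjamini-Hochberg adjustment, 0 (0%) had an adjusted p under 0.05. At an unadjusted p under 0.05 there were 260 genes lower in ASA+CUR (1.85%) and 139 higher (0.989%). Together these 399 were a smaller share than the 0.05 that such a threshold would give if no gene differed. Without ASA+CUR replicate 1 there were 86 lower and 88 higher. Of all genes, 18% had both ASA+CUR libraries below both ASA libraries, and 20.3% had both above. The median log2 difference over all genes was 0.0037. With 2 libraries a group, the counts below describe these 4 libraries and every named difference is a value that did not pass.

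**Figure D2:**
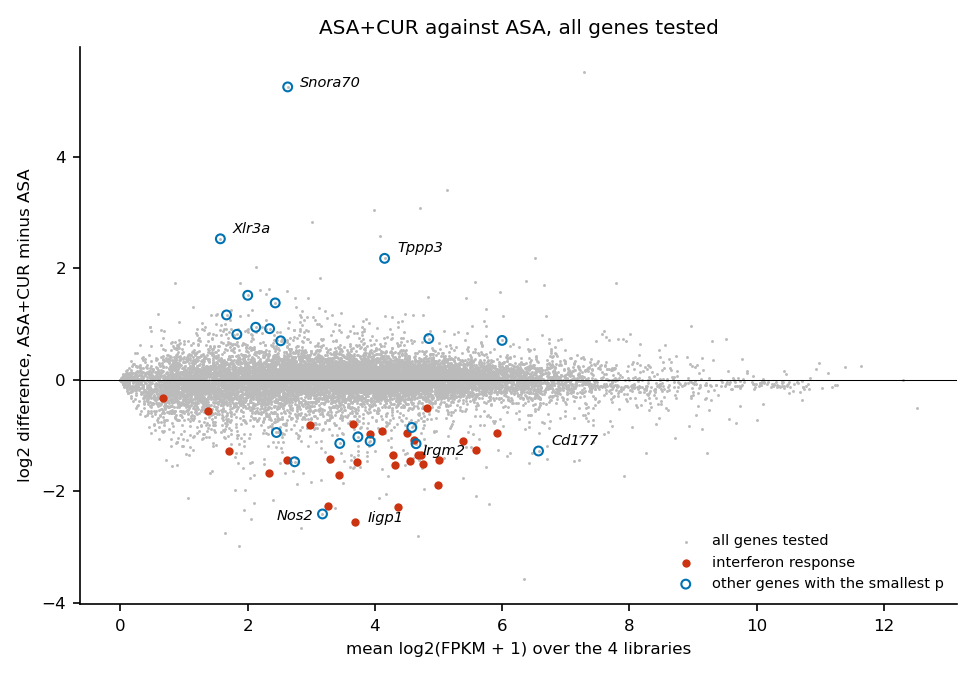
Each point is 1 of the 14061 genes tested, with the mean log2(FPKM + 1) over the 4 libraries on the x axis and the log2 difference of ASA+CUR minus ASA on the y axis. The 29 interferon response genes (filled, red) all lie below 0, and open circles mark the other genes with the smallest p in each direction.

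2 genes had an adjusted p under 1 (limma). The first was Irgm2 (chromosome 11, 58214977 to 58222783), at 36.6 and 39.2 FPKM in ASA and 14.5 and 12.0 FPKM in ASA+CUR. Both ASA+CUR libraries lay well below both ASA libraries, with a log2 difference of -1.46 (SE 0.17; adjusted p = 0.277, limma). It was -1.41 without ASA replicate 1. The other was Xlr3a (chromosome X, 73086293 to 73097095), an X-linked gene of the lymphocyte-regulated family, at 0.403 and 0.0889 FPKM in ASA and 6.41 and 5.90 in ASA+CUR (log2 difference 2.53, SE 0.31; adjusted p = 0.277, limma). Xlr3a has the near-identical copies Xlr3b and Xlr3c, between which reads can be split, so its value is uncertain. Xlr3b was listed at 0.0915 and 0.181 FPKM in ASA and 0.671 and 0.788 in ASA+CUR, and Xlr3c at 0 in all 10 libraries. Over all alternatives tried, the adjusted p of Irgm2 ran from 0.156 to 1 and that of Xlr3a from 0.0677 to 1 (limma).

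All 29 interferon response genes tested had a lower mean in ASA+CUR, with a median log2 difference of -1.35 and a range from -2.56 to -0.33. In 21 of the 29 both ASA+CUR libraries lay below both ASA libraries, against 18% of all genes, and 15 had an unadjusted p under 0.05, against 1.85%. None passed the adjusted test. The mean log2(FPKM + 1) over the list was 4.53 and 4.604 in the ASA libraries and 3.74 and 2.75 in the ASA+CUR libraries. ASA+CUR replicate 1 was the lowest of the 10 libraries, below the 3.03 and 3.002 of Control. When each ASA+CUR library was set against each ASA library, 25 to 29 of the 29 genes were lower, and the median of the list ran from -0.72 to -1.80. Leaving out ASA replicate 1 left 26 of 29 lower with a median of -1.24. Leaving out ASA+CUR replicate 1 left 29 of 29 lower with a median of -0.74.

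The transcription factors of the pathway were lower together, with all 6 not overlapping between the diets, against 18% of all genes. They and the groups that follow are parts of the 29 genes counted above. Irf8, an interferon-inducible factor best known from myeloid and B cells, lay at 38.6 and 30.8 FPKM in ASA and 17.97 and 13.9 in ASA+CUR (-1.08, SE 0.22). Its replicates were close within each diet and the diets did not overlap. Irf1, induced early by interferon-gamma, was highest of the 4 libraries in ASA replicate 0, at 113 FPKM, with 61.9 in ASA replicate 1 and 54.9 and 32.7 in ASA+CUR. Irf9, the DNA-binding part of the type I complex, differed least, at 27.9 and 38.2 FPKM against 26.6 and 19.5 (-0.50, SE 0.25).

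The GTPases had the lowest medians of the groups with several members. For the 4 immunity-related GTPases the median was -1.87, and all 4 did not overlap, against 18% of all genes. Igtp had 68.7 and 28.7 FPKM in ASA, and 14.5 and 4.66 in ASA+CUR (-2.28, SE 0.51). Irgm1 lay at 67.2 and 40.3 FPKM against 29.1 and 11.8 (-1.44, SE 0.38). Unlike Irgm2, both were higher in ASA replicate 0 than in ASA replicate 1. All 3 were lower in ASA+CUR replicate 1 than in ASA+CUR replicate 0. The 4 guanylate-binding proteins, which coat vacuoles that hold microbes, had a median of -1.56 with 3 not overlapping, against the same 18%. Gbp2 lay at 175 and 20.1 FPKM in ASA and 36.8 and 6.20 in ASA+CUR, so its ASA level rested on replicate 0.

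The antiviral effectors showed the opposite order within ASA. Ifit1, which binds foreign RNA, lay at 8.31 FPKM in ASA replicate 0 and 40.5 in ASA replicate 1, against 5.82 and 4.28 in ASA+CUR. Isg15, a ubiquitin-like protein joined to other proteins, lay at 27.5 and 72.6 FPKM against 19.8 and 11.5. Both were lower in each ASA+CUR library than in each ASA library, and ASA replicate 1 was the higher ASA library in both: without it the differences went from -1.71 to -0.63 for Ifit1 and from -1.51 to -0.83 for Isg15. Of the 11 effectors, 6 did not overlap, against 18% of all genes, and the median was -0.98. Usp18, Ifit3, Rsad2 and Mx2 were each highest in ASA replicate 1, and without it their differences were -0.0025, 0.22, 0.06 and 0.30. Usp18, which strips Isg15 from proteins, was at 41.0 FPKM there, 9.79 in ASA replicate 0, and 8.67 and 11.0 in ASA+CUR. Ifit2 was closer between the ASA libraries, at 17.97 and 24.2 FPKM in ASA and 12.1 and 3.76 in ASA+CUR (-1.47, SE 0.41). Thus the 2 ASA libraries were high in different parts of the program, replicate 0 in GTPases, Irf1 and Ido1 and replicate 1 in antiviral effectors, and Irgm2, Irf8 and Ifit2 were high in both.

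**Figure D3:**
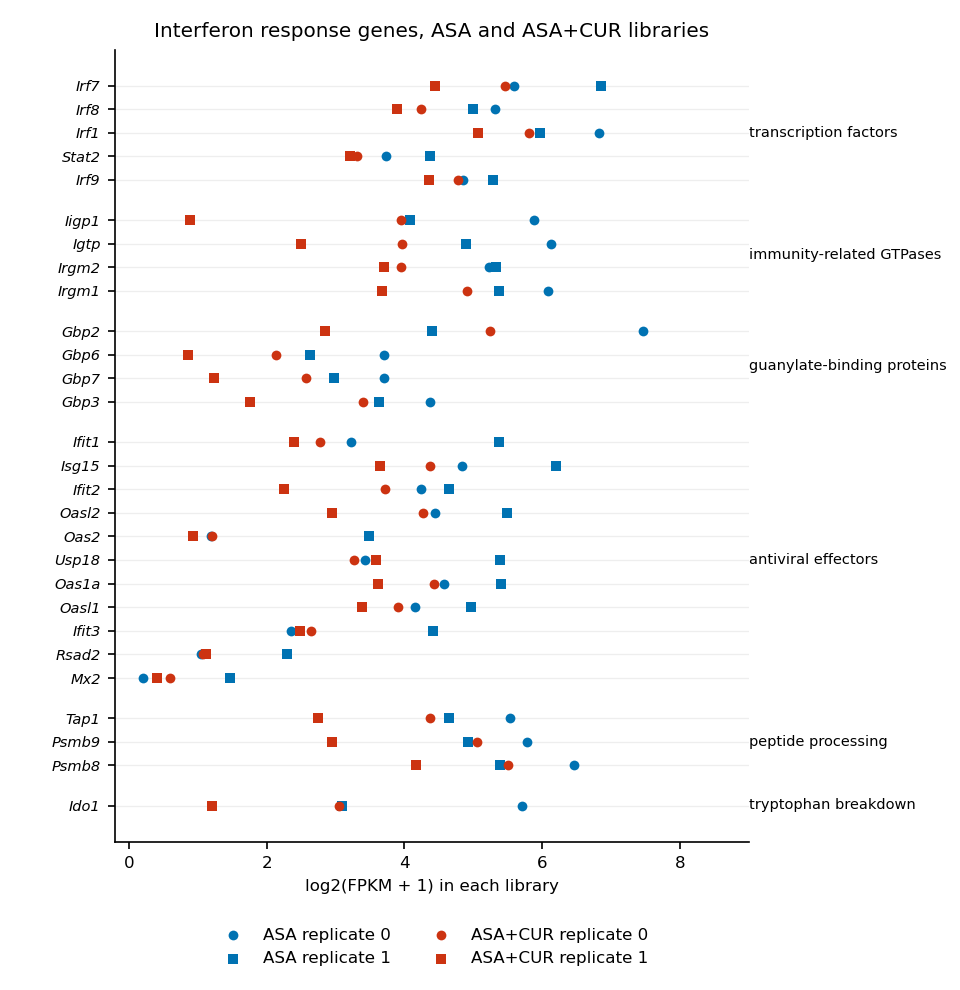
log2(FPKM + 1) of 28 of the 29 interferon response genes tested, grouped by role, in the 2 ASA libraries (blue) and the 2 ASA+CUR libraries (red), with circles for replicate 0 and squares for replicate 1. The transcription factors and immunity-related GTPases have both red points left of both blue points, while among antiviral effectors the rightmost point is ASA replicate 1.

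Peptide processing and tryptophan breakdown, like the GTPases, had a higher mean in ASA replicate 0 than in ASA replicate 1. All 3 peptide processing genes had a lower mean in ASA+CUR, but only Tap1 did not overlap. Their mean log2 level was 4.99 in ASA replicate 1 and 4.97 in ASA+CUR replicate 0. Tap1, which carries peptides into the endoplasmic reticulum, lay at 45.2 and 24.1 FPKM in ASA and 19.6 and 5.71 in ASA+CUR (-1.54, SE 0.53). Ido1, the enzyme that opens the tryptophan ring, lay at 51.3 and 7.49 FPKM against 7.27 and 1.31 (-2.27, SE 0.86), and its lower ASA library was level with its higher ASA+CUR library. Parp14 and Dtx3l, induced by interferon but not on the list, were even across the ASA libraries: Parp14 lay at 21.2 and 21.4 FPKM against 12.3 and 7.08, and Dtx3l at 31.4 and 31.0 against 19.5 and 14.4.

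The ligands were low or listed at 0, and of the receptor chains and kinases described here Ifngr1 had separate ranges. Ifng, the gene of interferon-gamma, was listed at 1.28 FPKM in ASA replicate 0 and at 0 in the other 3 libraries and was too low to test. Ifnb1 was listed at 0 in all 10 libraries. The ligand-binding receptor chain Ifngr1 lay at 98.5 and 120 FPKM in ASA and 83.1 and 67.6 in ASA+CUR (-0.53, SE 0.21). The type I receptor chain Ifnar1 lay at 14.6 and 15.9 FPKM against 16.01 and 15.2. The kinases Jak1 and Jak2 differed by 0.00 (SE 0.17) and 0.08 (SE 0.14) on the log2 scale. The receptor and kinase genes were picked with their values in view.

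Markers of T and NK cells, which make interferon-gamma, were also lower. All 13 T and NK cell genes tested had a lower mean in ASA+CUR (median -0.65), 10 of them not overlapping, against 18% of all genes. Cd3g, a chain of the T cell receptor complex, lay at 3.99 and 5.19 FPKM in ASA and 1.43 and 1.03 in ASA+CUR (-1.32, SE 0.63). Gzmb, a granule protease of killer cells, lay at 3.30 and 5.07 FPKM against 2.73 and 1.402. Cd8a and Cd8b1 were under 1 FPKM in all 4 libraries. The list's mean log2 level was 1.78 and 2.31 in ASA and 1.43 and 1.25 in ASA+CUR, so both ASA+CUR libraries were lower here as in the interferon genes, and its part in their values was not tested. Without ASA replicate 1 its median was -0.43.

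Of 13 class II antigen presentation genes, 10 were lower (median -0.73). Only 4 did not overlap in that direction, against 18% of all genes, and the median was -0.21 without ASA+CUR replicate 1. Cd74, the invariant chain, lay at 947 and 623 FPKM in ASA and 572 and 304 in ASA+CUR. H2-Eb1, a class II chain, lay at 158 and 130 FPKM against 115 and 52.8 (-0.87, SE 0.44). Cd80, a costimulatory ligand, was higher, at 1.95 and 1.84 FPKM against 3.21 and 2.63. Macrophage and dendritic cell genes had a median of -0.33, and 0.12 without ASA replicate 1, so their direction turned on that library. The mast cell list behaved likewise: its median was -1.04 as reported, -0.06 without ASA replicate 1 and -1.94 without ASA replicate 0. Tpsb2, a mast cell tryptase, was at 5.30 and 42.2 FPKM in ASA and 4.45 and 3.16 in ASA+CUR.

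Chemokines that answer interferon were low in ASA+CUR replicate 1 above all. Cxcl9, which draws T cells, lay at 12.6 and 8.03 FPKM in ASA and 4.66 and 0.0977 in ASA+CUR (-2.15, SE 0.70). Cxcl10 lay at 22.3 and 8.803 FPKM against 6.49 and 1.38 (-1.84, SE 0.61). The monocyte attractant Ccl2 lay at 34.1 and 13.5 FPKM against 9.86 and 8.01. Over the 24 cytokines and chemokines tested, 20 were lower (median -0.63). Between single libraries 11 to 22 of the 24 were lower. For ASA+CUR replicate 1 against ASA replicate 1, 11 were lower and 13 higher, with a median of 0.01. Of the 24, 8 did not overlap below, against 18% of all genes, and 1 above, against 20.3%. The median was -0.24 without ASA replicate 0. The 1 above was Il23a, a subunit of interleukin-23, at 3.07 and 7.14 FPKM in ASA and 9.05 and 13.6 in ASA+CUR. The classical inflammatory cytokines overlapped or came close to it. Il6 lay at 12.3 and 1.22 FPKM against 0.998 and 4.63, Il1b at 49.4 and 51.5 against 27.5 and 53.5, and Tnf at 13.1 and 7.30 against 7.12 and 5.19.

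Nos2, Nox1, Duox2 and Duoxa2 were lower in both ASA+CUR libraries than in both ASA libraries. Nos2, the inducible nitric oxide synthase, lay at 23.6 and 16.7 FPKM in ASA and 3.94 and 2.11 in ASA+CUR (-2.41, SE 0.44), the lowest member by log2 difference of the 20 NF-kB subunits and targets. Nox1, the superoxide-making oxidase of colon epithelium, lay at 15.1 and 15.3 FPKM against 5.26 and 7.62 (-1.14, SE 0.20). Noxo1 and Noxa1, the organizer and activator of that oxidase, differed by -0.33 (SE 0.24) and -0.26 (SE 0.20). Duox2, the hydrogen peroxide-making oxidase of the mucosal surface, lay at 46.0 and 82.8 FPKM against 20.4 and 25.5 (-1.40, SE 0.40), and Duoxa2, its maturation factor, at 75.5 and 111 against 31.7 and 29.2 (-1.56, SE 0.59). Without ASA replicate 1 the differences were -2.65 for Nos2, -1.13 for Nox1 and -0.98 for Duox2.

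Cd177, a surface protein known from neutrophils and listed at 108 and 79.6 FPKM in Control colon, lay at 144 and 150 FPKM in ASA and 51.0 and 70.7 in ASA+CUR (-1.28, SE 0.23). In the neutrophil list 9 of 11 genes tested were lower (median -0.44), but none had separate ranges. Its median was 0.01 without ASA replicate 1, -0.10 without ASA+CUR replicate 0, -0.70 without ASA+CUR replicate 1 and -1.18 without ASA replicate 0. Steap4, a metalloreductase of inflamed epithelium, lay at 37.9 and 34.8 FPKM against 13.4 and 18.7 (-1.15, SE 0.22). Ptk6, a kinase of differentiating gut epithelium, lay at 10.3 and 9.96 FPKM against 3.11 and 2.91 (-1.47, SE 0.29). Pigr, which carries antibody across the epithelium, lay at 532 and 435 FPKM against 301 and 124 (-1.31, SE 0.45). H2-Q10, a class I gene with close relatives that can share its reads, lay at 6.26 and 6.96 FPKM against 3.17 and 2.73.

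**Figure D4:**
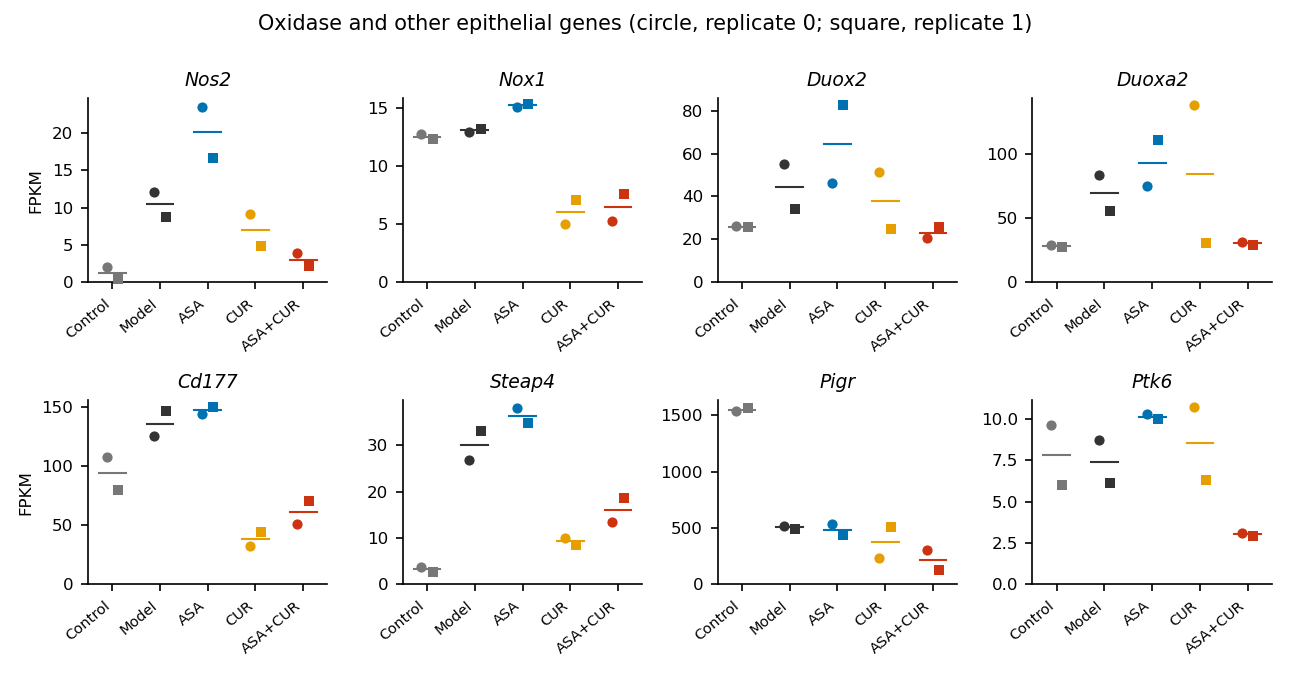
FPKM (linear axis, from 0) of 8 genes in each of the 10 libraries, with circles for replicate 0, squares for replicate 1 and a bar at the mean of the 2. For Nox1, Cd177 and Steap4 both CUR libraries lie near both ASA+CUR libraries and below Model and ASA, while Ptk6 is lowest in ASA+CUR.

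In the antimicrobial and mucosal defence list 23 of 25 genes were lower (median -0.93). Of the 25, 11 did not overlap below, against 18% of all genes, and 0 above, against 20.3%. In 4 that were lower the unadjusted p was under 0.05 (limma), against 1.85% of all genes. The value of the list hung on single libraries, from -0.39 without ASA+CUR replicate 0 to -1.50 without ASA replicate 0. Reg3b, a lectin that kills bacteria, lay at 358 and 219 FPKM in ASA and 14.4 and 35.1 in ASA+CUR (-3.57, SE 1.64). It also ran from 0.698 to 30.8 FPKM within Control and from 7.80 to 214 within Model. The Paneth cell defensin Defa24 spread from 154 to 1097 FPKM within ASA and from 254 to 502 within ASA+CUR.

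The target of the shared drug showed little difference. Ptgs1, the constitutive cyclooxygenase that aspirin blocks, lay at 11.2 and 13.5 FPKM in ASA and 14.5 and 13.2 in ASA+CUR (0.15, SE 0.27). Ptgs2, the inducible cyclooxygenase, lay at 33.2 and 6.82 FPKM against 19.0 and 43.4, so the diets overlapped and its direction turned without ASA replicate 1 (-0.20). Hpgd, which breaks down prostaglandins, lay at 29.7 and 22.9 FPKM against 39.9 and 15.8. Of the 27 genes of the prostaglandin and leukotriene pathway, 8 were higher and 19 lower, with a median of -0.05. Alox12, a lipoxygenase, was at 41.7 and 5.81 FPKM in ASA and 48.2 and 45.4 in ASA+CUR. Its log2 difference was 1.49 (SE 0.78) and only 0.16 without ASA replicate 1, the library low in Hoxd13.

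Ces1g, a carboxylesterase of the family that hydrolyses esters, lay at 17.7 and 18.2 FPKM in ASA and 8.47 and 8.18 in ASA+CUR (-1.02, SE 0.17), while Model lay at 7.40 and 5.66 and Control at 3.58 and 4.26. It was thus higher in the ASA libraries than in the other 8. Ces2e, another carboxylesterase, ran lower at 23.0 and 33.9 FPKM against 15.1 and 8.805 (-1.20, SE 0.41). Of 26 genes of aspirin hydrolysis and drug conjugation, 21 were lower (median -0.24), and 5 did not overlap below, a share near the 18% of all genes. The median was -0.07 without ASA+CUR replicate 1 and -0.60 without ASA+CUR replicate 0. For the 27 targets of Nrf2, the factor of the oxidant response, 21 were lower (median -0.24). Without ASA replicate 1, 15 were lower and 12 higher, with a median of -0.06. Nqo1, a quinone reductase, lay at 24.2 and 15.4 FPKM against 16.8 and 9.08, and Hmox1, heme oxygenase, at 76.0 and 159 against 55.6 and 312, both overlapping.

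Higher in ASA+CUR were genes of the altered epithelium, by smaller amounts. In the fetal-like and regenerative list 16 of 19 genes were higher (median 0.41), 6 not overlapping against 20.3% of all genes. The median ran from 0.29 without ASA+CUR replicate 1 to 0.76 without ASA replicate 0. Anxa1, an annexin of wound repair, lay at 553 and 443 FPKM in ASA and 869 and 739 in ASA+CUR (0.69, SE 0.31). Ly6a, the Sca-1 antigen, an interferon-responsive member of that list, lay lower, at 935 and 995 FPKM against 585 and 604.

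Wnt targets and feedback inhibitors were higher in 20 of 26 genes (median 0.22), with 6 not overlapping above, a share near the 20.3% of all genes, and 2 below. The median was 0.03 without ASA replicate 0 and 0.02 without ASA+CUR replicate 1. Axin2, a feedback inhibitor read as a Wnt target, lay at 65.0 and 77.5 FPKM in ASA and 95.6 and 111 in ASA+CUR (0.53, SE 0.31). Sox9, a factor of crypt progenitors, lay at 34.1 and 26.4 FPKM against 38.8 and 43.0 (0.43, SE 0.16). Cd44 lay at 41.3 and 48.5 FPKM against 57.1 and 67.2 (0.46, SE 0.18). Mmp7, a protease that is also a Wnt target, ran the other way, at 376 and 526 FPKM against 220 and 347, as did Mmp9, at 19.9 and 66.8 against 11.1 and 13.1. All 30 cell cycle genes had a higher mean in ASA+CUR, with a median of 0.32 and 12 not overlapping, against 20.3% of all genes. The size rested in part on ASA replicate 1: without it 20 of 30 were higher and the median was 0.11, and without ASA+CUR replicate 1 it was 0.20. Against ASA replicate 0, 14 of 30 were higher in ASA+CUR replicate 0 and 27 of 30 in ASA+CUR replicate 1. Mki67, a marker of dividing cells, lay at 25.4 and 12.9 FPKM against 18.8 and 24.2.

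The remaining genes with the smallest p among those higher in ASA+CUR were mostly low or modest. Tppp3, a tubulin-binding protein, lay at 14.8 and 3.41 FPKM in ASA and 45.6 and 29.8 in ASA+CUR (2.18, SE 0.51), and at 109 and 127 in Control. Hmga1, a chromatin protein of proliferating cells, lay at 53.5 and 45.0 FPKM against 74.8 and 87.1 (0.71, SE 0.18). Ddah2, which breaks down an inhibitor of nitric oxide synthase, lay at 21.0 and 21.6 FPKM against 30.5 and 42.9 (0.74, SE 0.20). Serpinb8, Bpifb5, Trex2, Krt90, Arhgap40, Vash2 and the transcript NR_027360 had log2 differences from 0.70 to 1.52 and stayed under 9 FPKM in all 4 libraries. Both ASA libraries had Snora70, which guides RNA modification, listed at 0, and it was at 35.4 and 39.4 FPKM in ASA+CUR. It was listed at 0 in CUR replicate 0 and at 40.5 in CUR replicate 1, and since FPKM divides by length a few fragments of so short an RNA can give such a value.

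Squamous epithelium genes, which stand for anal or skin-type lining in a colon sample, were higher in 19 of 21 genes tested (median 0.54), and Krt5 differed more between replicate numbers than between diets. Krt5, a basal keratin, was listed at 94.5 FPKM in ASA replicate 0 and 212 in ASA+CUR replicate 0, and at 0.0324 and 0.0662 in the replicates numbered 1. Between libraries of the same number, 20 of 21 genes were higher in ASA+CUR for replicates 0 and 15 of 21 for replicates 1. The median was -0.16 without ASA+CUR replicate 0, 0.01 without ASA replicate 1, 1.11 without ASA replicate 0 and 1.26 without ASA+CUR replicate 1. In the plot of list medians this is a long line that crosses 0.

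**Figure D5:**
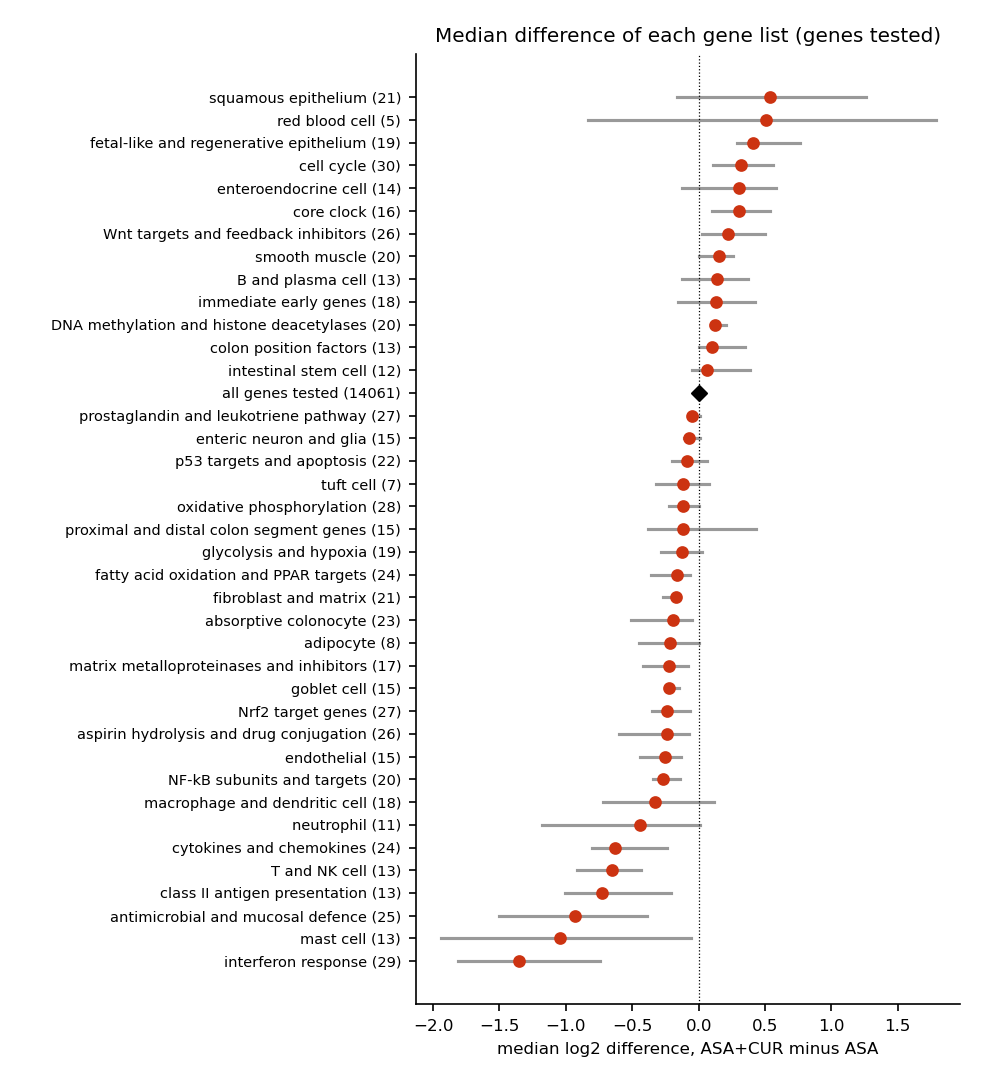
Median log2 difference, ASA+CUR minus ASA, of each of the 38 gene lists (points, with the number of genes tested) and of all genes tested (diamond), with lines from the lowest to the highest median as each of the 4 libraries was left out. The interferon response, T and NK cell and antimicrobial lists are among those that lie below 0 along their whole line, as do the cytokine and NF-kB lists. The fetal-like, cell cycle and core clock lists are among those above 0 along theirs, while squamous, red blood cell and enteroendocrine lines cross 0.

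Differentiated epithelium and the wall gave small medians. The 23 absorptive colonocyte genes had a median of -0.19, with Car4, a surface carbonic anhydrase, at 27.2 and 13.6 FPKM in ASA and 31.7 and 14.2 in ASA+CUR. For goblet cells the median was -0.23 over 15 genes. Atoh1, the factor that sets the secretory fate, lay at 7.54 and 9.17 FPKM against 7.12 and 3.97 (-0.55, SE 0.23). Enteroendocrine genes were higher in 11 of 14 (median 0.30), and -0.12 without ASA replicate 1. Nts, the neurotensin gene, lay at 2.37 and 0.392 FPKM against 4.28 and 4.002. Among 20 smooth muscle genes 15 were higher (median 0.15), with 7 not overlapping above, against 20.3% of all genes. Without ASA+CUR replicate 0 the median was -0.0007. Cnn1, calponin of smooth muscle, lay at 7.68 and 10.5 FPKM against 21.4 and 19.4 (1.10, SE 0.32), and Des, desmin, at 13.9 and 17.5 against 27.8 and 21.2 (0.61, SE 0.30). Both had a far higher level in Control, at 963 and 603 FPKM for Cnn1. Of 20 genes of DNA methylation and histone deacetylation 17 were higher (median 0.12), and 10 did not overlap above, against 20.3% of all genes. Hk2, the hexokinase of glycolysis, lay at 77.4 and 64.8 FPKM against 33.4 and 33.3 (-1.06, SE 0.34), while the median of the 19 glycolysis and hypoxia genes was -0.12.

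Set against the same 2 Model libraries, which both comparisons share, the interferon list median lay above Model for ASA and below it for ASA+CUR. It was 0.39 for ASA minus Model and -0.72 for ASA+CUR minus Model. The list mean was 3.86 and 4.17 in Model, 3.74 in ASA+CUR replicate 0 and 2.75 in ASA+CUR replicate 1. For the 11 antiviral effectors the median of ASA minus Model was only 0.10. Their mean in ASA replicate 0 was 3.06, below the 3.60 and 3.69 of Model. Irgm2 lay at 21.3 and 24.5 FPKM in Model, with a log2 difference of 0.71 for ASA and -0.75 for ASA+CUR. For Nos2, at 12.1 and 8.76 FPKM in Model, the values were 0.88 and -1.53. Nox1, at 13.0 and 13.2 FPKM in Model, gave 0.21 and -0.94, and Cd177 gave 0.12 and -1.16, so for these 2 the ASA libraries were near Model. The T and NK list had a median of -0.20 for ASA and -0.85 for ASA+CUR, and the defence list 0.02 and -0.88. The Wnt list had 0.05 and 0.28. For the T and NK list the Model libraries were far apart, with list means of 1.49 and 2.87. Model replicate 0 was near the 1.43 and 1.25 of ASA+CUR and below the 1.78 and 2.31 of ASA. The curcumin diet had its own pattern. Its interferon list lay above Model by a median of 1.13, with list means of 5.46 and 4.90 against 3.86 and 4.17. Nox1 lay at 5.01 and 7.04 FPKM in CUR, Cd177 at 32.6 and 44.5 and Steap4 at 10.0 and 8.49, all below both ASA libraries.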

How the data were processed

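Libraries were prepared from colon RNA with a poly-A TruSeq kit, per the labels' protocols. The authors deposited 1 table of FPKM per transcript and library. The tools were Cuffdiff (version not given), TopHat2 2.0.9 and bcl2fastq 2.17.1.14, and the build GRCm38, per the submitters' processing notes. Bowtie2 2.1.0.0 is also listed there. FPKM are normalized to length and depth, so counts and their sampling error were not recovered.

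The 30073 transcripts were named by RefSeq (29443) or GENCODE (179), and 451 kept their identifier. FPKM were summed per gene, and the 14061 genes that reached 1 FPKM in 2 or more of the 10 libraries were tested. The test was that of limma (3.58.1, run in R 4.3.3) on log2(FPKM + 1) (intensity trend, 1 mean per group, all 10 libraries, two-sided, Benjamini-Hochberg, threshold 0.05), a procedure tested on simulated data. RefSeq gave coordinates and promoters (GRCm38.p6).

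The comparison and its 38 gene lists were chosen with earlier results of these data known. Genes were named as the 12 with the smallest p in each direction, the 2 with the smallest p in each list and 16 fixed genes, of which Muc2 was not analysed here. Other list members, the interferon receptors and kinases, and Xlr3b and Xlr3c were named after their values were seen. Some genes that the rule covers are not reported here. Lists carry no test. Alternatives covered filters, pseudocounts of 0.1 and 0.5, scaling, the libraries in the fit, the trend, a replicate block, each library left out, and transcripts in place of genes. One alternative, the 4 libraries with a replicate block, was added after the data were seen.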

Additional observations from a re-analysis of the deposited data

How the results depend on the processing

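No gene passed the threshold in the comparison as reported. 2 passed with no filter on low values (H2ac15 and Uts2, both under 0.4 FPKM), 1 with only the 4 libraries of the comparison (Snora70), and 0 to 1 when a library was left out (Snora16a, without ASA+CUR replicate 0). The other alternatives gave 0, transcripts included. The count at an unadjusted p under 0.05, 399 as reported, was 1022 without ASA replicate 0, 254 without ASA replicate 1, 174 without ASA+CUR replicate 1 and 667 with the 4 libraries alone. The labels do not say that the replicate numbers pair the libraries, and this was not tested. Same-numbered deviations correlated at 0.326 between ASA and ASA+CUR, the highest of any pair of groups, but at -0.214 between ASA and CUR. With the replicate block 0 genes passed and 391 had an unadjusted p under 0.05, and the 4 libraries with replicate block gave 0 and 771.

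As single libraries were left out, the median ran from -1.81 to -0.74 for the interferon response, from -0.92 to -0.43 for T and NK cells and from -1.50 to -0.39 for antimicrobial and mucosal defence. With a pseudocount of 0.1 the T and NK median was -1.07. Of 107 named genes, 92 kept their direction under every alternative run on genes, as did all 24 with the smallest p. The 15 that turned did so only when a library was left out. Their ranges were -0.11 to 1.66 (Nr4a1), -0.86 to 0.0811 (Alox5), -1.78 to 0.0703 (Ret), -1.91 to 0.11 (Fabp4), -0.25 to 1.26 (Alas2), -0.69 to 0.0068 (Cox5b), -0.20 to 1.93 (Ptgs2), -0.69 to 0.59 (Hpgd), -1.98 to 0.59 (Il6), -0.85 to 0.0843 (Il1b), -0.97 to 1.49 (Hmox1), -0.24 to 0.69 (Mki67), -0.42 to 0.68 (Car4), -0.12 to 3.51 (Hoxb13) and -3.22 to 4.42 (Krt5). The causes were not tested. Where a group kept 1 library, that library was assumed to vary like the other groups.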

Other observations

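Some genes outside the lists were split within ASA in the manner of Hoxd13, and were picked for it with their values in view. Klk15, a kallikrein protease, was listed at 29.4 FPKM in ASA replicate 0, 0 in ASA replicate 1, and 39.0 and 50.9 in ASA+CUR. Wfdc2, a secreted protease inhibitor, lay at 287 and 5.34 FPKM in ASA and 216 and 176 in ASA+CUR. B4galnt2, a glycosyltransferase of colon epithelium, ran the other way, at 8.52 and 142 FPKM in ASA and 8.99 and 6.83 in ASA+CUR. Wfdc2 and B4galnt2 also differed between the CUR libraries, in the opposite replicate order to ASA. Wfdc2 lay at 6.19 and 243 FPKM and B4galnt2 at 122 and 44.0. Both CUR values of B4galnt2 were above those of ASA replicate 0 and ASA+CUR.

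Among the largest log2 differences of all genes tested was the microRNA precursor Mir703, at 534 FPKM and 0 in ASA and 1962 and 574 in ASA+CUR, so its difference came from the 1 library listed at 0.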
